A study of Homo sapiens with 8 samples.

Results

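The screen asked which druggable genes, when cut by Cas9, shift the amount of PRMT5 protein in ovarian cancer cells, and the protein kinase C (PKC) and protein kinase D (PKD) genes were 12 of the 1420 genes it targeted. They were selected by gene symbol, with earlier results of these data known. The set comprises conventional PKC genes (among them *PRKCA* and *PRKCB*), 4 PKC genes of the class that responds to diacylglycerol but not calcium, abbreviated nPKC (*PRKCD*, *PRKCE*, *PRKCH* and *PRKCQ*), 2 atypical PKC genes (*PRKCI* and *PRKCZ*) and 3 PKD genes (*PRKD1*, *PRKD2* and *PRKD3*). Each was targeted by 7 sgRNAs, which gave 84 of the 9929 targeting sgRNAs, next to 500 control sgRNAs. The cells were chemo-resistant COV362, an established human cell line of high-grade serous ovarian cancer that the labels give as WT, made resistant to platinum and carrying Cas9. All groups shared this background and the same transduced library, and they were cultures split from 1 transduced and puromycin-selected population. After culture the cells were stained for PRMT5 and sorted into the brightest (PRMT5hi) and dimmest (PRMT5lo) cells, with 4 libraries of each. Every value analysed here is a summary that the authors made from the 4 libraries of each population. Values of single libraries can therefore not be given, and the spread between libraries enters through the deposited variance of each sgRNA.

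PKC enzymes are serine/threonine kinases that lie downstream of phospholipase C. Conventional isoforms respond to calcium and diacylglycerol, nPKC isoforms to diacylglycerol without calcium, and atypical isoforms to neither, being steered instead by protein partners such as the PAR polarity complex. PKD enzymes belong to a different kinase family, bind diacylglycerol and are activated by PKC phosphorylation. Phorbol esters, which mimic diacylglycerol, activate the conventional and nPKC isoforms and PKD. The sequences of the sgRNAs were not used here, so where in each gene they cut, and whether any also match a related isoform, was not examined.

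Of the 12 genes, *PRKCE* was the only one past the thresholds of the study's figure legend, which ask for a mean over sgRNAs beyond 0.25 on the log2 scale with p (here one-sided) below 0.01. Its sgRNAs were more abundant in PRMT5lo cells, with a mean log2 ratio of 0.27 (SD 0.41 over 7 sgRNAs, library SE 0.11), a 1.21-fold higher abundance, with mean CPM of 63.7 in PRMT5hi and 76.9 in PRMT5lo. The log2 ratio of an sgRNA is log2 of CPM + 1 in PRMT5lo over CPM + 1 in PRMT5hi, where CPM is the read count scaled to a common library total of 1e+06, so positive values mark sgRNAs that were more abundant in PRMT5lo cells. The file names the populations only as a and b. They were assigned from the study's legend and its sheet for the screen, while its methods text gives the opposite sign. The p of a gene combined its sgRNA p-values by Fisher's method. The study's methods text gives a stricter limit for PRMT5lo, a p under 0.001, which *PRKCE* did not pass, and at which 0 of the 12 genes were called in either direction. Of all 1420 genes, 2 were called toward PRMT5lo and 5 toward PRMT5hi at that p. At the legend's thresholds, 10 (0.704%) of the 1420 genes passed toward PRMT5lo and 12 (0.845%) toward PRMT5hi. For the PKC and PKD genes the counts were 1 and 0. The one-sided p of *PRKCE* toward PRMT5lo was 0.00817, and after Benjamini-Hochberg adjustment over the 1420 genes, as in the CB2 method, it was 0.322. No PKC or PKD gene passed an adjusted p of 0.05 by this test in either direction (0.141% of all genes did toward PRMT5lo and 0.211% toward PRMT5hi), and at an unadjusted one-sided p under 0.05 only *PRKCE* passed, toward PRMT5lo (8.59% of all genes toward PRMT5lo and 9.3% toward PRMT5hi).

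The conventional PKC genes *PRKCA* and *PRKCB* did not share a direction, and neither passed. *PRKCA* encodes PKC alpha, a widely expressed isoform, and its gene spans chromosome 17 from 66302613 to 66810743 (GRCh38.p14, as for all genes here). Its mean log2 ratio was 0.06 (SD 0.27 over sgRNAs, library SE 0.11), with 4 of 7 sgRNAs above 0. The lowest ratio came from PRKCA_7, which stood at 137 CPM in PRMT5hi and 98.2 CPM in PRMT5lo (-0.48, library SE 0.29). The highest came from PRKCA_1, at 70.7 CPM in PRMT5hi and 86.0 CPM in PRMT5lo (0.28, library SE 0.18). PRKCA_3 (-0.03, library SE 0.29) and PRKCA_4 (-0.01, library SE 0.19) were also below 0, each by less than its library SE. Without PRKCA_7 the mean was 0.15. PRKCA_5 was the least abundant PKC or PKD sgRNA, with 17.6 CPM in PRMT5hi and 20.9 CPM in PRMT5lo, or 285 and 399.6 estimated reads over the 4 libraries.

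*PRKCB*, which encodes the beta isoforms known from B cell receptor signaling, lies on chromosome 16 from 23835983 to 24220611. Its mean was -0.12 (SD 0.18, library SE 0.08), and 5 of 7 sgRNAs were more abundant in PRMT5hi. PRKCB_1 stood at 120 CPM in PRMT5hi and 91.9 CPM in PRMT5lo (-0.38, library SE 0.20). At the other end PRKCB_7 stood at 111 CPM and 121 CPM (0.12, library SE 0.23). The one-sided p toward PRMT5hi was 0.119 (adjusted p = 0.708 by Fisher's method), the smallest in that direction among the 12 genes.

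The nPKC genes held the highest and the lowest mean of the 12, *PRKCE* at 0.27 and *PRKCD* at -0.14. *PRKCE* encodes PKC epsilon, an isoform long studied as a transforming and prosurvival kinase that acts upstream of ERK, and it lies on chromosome 2 from 45651279 to 46187990. Its 7 sgRNAs fell into 4 that were more abundant in PRMT5lo and 3 that were not. PRKCE_5 stood at 30.9 CPM in PRMT5hi and 59.8 CPM in PRMT5lo, a log2 ratio of 0.93 (library SE 0.28) and 1.91-fold higher in PRMT5lo. PRKCE_1 stood at 72.4 CPM and 104 CPM, with an error nearly as large as its ratio (0.51, library SE 0.40). PRKCE_4 stood at 68.5 CPM and 93.9 CPM (0.45, library SE 0.13).

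PRKCE_3 stood at 78.9 CPM in PRMT5hi and 102 CPM in PRMT5lo (0.36, library SE 0.29). The other 3 were slightly more abundant in PRMT5hi. PRKCE_2 stood at 56.3 CPM and 54.7 CPM (-0.04, library SE 0.25), PRKCE_7 at 82.7 CPM and 75.0 CPM (-0.14, library SE 0.38), and PRKCE_6 at 56.4 CPM and 50.04 CPM (-0.17, library SE 0.26). There was no sgRNA between -0.04 and 0.36, and all 3 lower ratios were smaller than their library error. The SD over the *PRKCE* sgRNAs was the largest of the 12 genes and higher than that of 91.6% of all genes, counting the gene itself. In the beta-binomial sgRNA test of CB2, only PRKCE_5 (two-sided p = 0.0157, adjusted p = 0.543) and PRKCE_4 (two-sided p = 0.0195, adjusted p = 0.584) were, of these 7, under 0.05 before adjustment.

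The call for *PRKCE* rested on these sgRNAs. In PRMT5lo the variances of PRKCE_5 and PRKCE_4 were at the lower limit of the method, that of read counting alone, so no further spread between libraries entered their p-values there. Without PRKCE_5 the mean was 0.16 and the one-sided p toward PRMT5lo 0.0653, and without PRKCE_4 the mean was 0.24 and the p 0.0578. The thresholds were also missed without PRKCE_1 (mean 0.23, p = 0.0133 by Fisher's method) and without PRKCE_3 (mean 0.26, p = 0.0103). They were met in the 3 remaining cases, in which an sgRNA with a ratio below 0 was left out.

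*PRKCD* encodes PKC delta, which is linked to apoptosis after DNA damage, and lies on chromosome 3 from 53161209 to 53192717. It was the most one-sided of the 12 genes toward PRMT5hi, with 6 of 7 sgRNAs more abundant there, a mean of -0.14 (SD 0.14, library SE 0.12) and a one-sided p of 0.209 (adjusted p = 0.807). PRKCD_1 stood at 39.5 CPM in PRMT5hi and 31.7 CPM in PRMT5lo (-0.31, library SE 0.44), and PRKCD_3, the exception, at 38.4 CPM and 41.5 CPM (0.11, library SE 0.37). No single sgRNA carried the mean, which stayed between -0.18 and -0.11 with each left out in turn.

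*PRKCH* encodes PKC eta, an isoform of epithelial cells, and lies on chromosome 14 from 61187468 to 61550976. It had a mean of 0.04 (SD 0.32, library SE 0.12) and a one-sided p toward PRMT5lo of 0.164. PRKCH_4 was the most abundant of the 84 sgRNAs in PRMT5lo, at 216 CPM against 153 CPM in PRMT5hi (0.50, library SE 0.12). It had the smallest p of the 84 (two-sided p = 0.00943 by the beta-binomial sgRNA test, adjusted p = 0.435), and in neither population was its variance at the smallest allowed value. The other *PRKCH* sgRNAs did not follow it as a group. PRKCH_7 had a ratio of 0.44 (library SE 0.40), while PRKCH_1 stood lowest at 153 CPM in PRMT5hi and 122 CPM in PRMT5lo (-0.33, library SE 0.20), and without PRKCH_4 the mean was -0.03. *PRKCQ*, the T cell isoform PKC theta, lies on chromosome 10 from 6394097 to 6580646 and had a mean of 0.02 (SD 0.19, library SE 0.10). Its sgRNAs ran from PRKCQ_1 at 126 CPM in PRMT5hi and 108 CPM in PRMT5lo (-0.22, library SE 0.20) to PRKCQ_7 at 91.9 CPM and 112 CPM (0.28, library SE 0.30).

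The atypical PKC genes had means close to 0, with sgRNAs on both sides. *PRKCI* encodes PKC iota, a polarity kinase whose locus is often amplified in serous ovarian cancer, and lies on chromosome 3 from 170222424 to 170305977. Its mean was -0.03 (SD 0.22, library SE 0.08) with 3 of 7 sgRNAs above 0. PRKCI_6 stood at 146 CPM in PRMT5hi and 109 CPM in PRMT5lo (-0.42, library SE 0.15), 1.34-fold higher in PRMT5hi (two-sided p = 0.0270 by the beta-binomial sgRNA test, adjusted p = 0.648). PRKCI_4 went the other way at 97.6 CPM and 119 CPM (0.28, library SE 0.21). *PRKCI* sgRNAs were the most abundant of the 12 genes, with a mean of 118 CPM in PRMT5hi and 115 CPM in PRMT5lo.

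*PRKCZ* encodes PKC zeta, the other atypical kinase, and lies on chromosome 1 from 2048504 to 2185395. Its sgRNAs had the lowest mean abundance of the 12 genes on the log2 scale, 5.81 for log2(CPM + 1) over both populations, with mean CPM of 66.7 in PRMT5hi and 65.4 in PRMT5lo. The mean log2 ratio was 0.02 (SD 0.36, library SE 0.13), with a wide spread around it. PRKCZ_3 stood at 44.7 CPM in PRMT5hi and 64.8 CPM in PRMT5lo (0.53, library SE 0.37), and PRKCZ_1 at 68.0 CPM and 48.3 CPM (-0.48, library SE 0.27). Neither was under 0.05 in the sgRNA test, with two-sided p-values of 0.178 and 0.182. The mean of *PRKCZ* thus averaged sgRNAs that lay far apart, each with a large library error.

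The PKD genes had 13 of 21 sgRNAs above 0 and none under 0.05 in the sgRNA test. *PRKD1*, the founding member, lies on chromosome 14 from 29576479 to 29927847 and had a mean of 0.06 (SD 0.09, library SE 0.09). The ratios of its 7 sgRNAs lay closer together than those of almost any gene of the library: only 0.423% of the 1420 genes had an SD as small or smaller, counting *PRKD1* itself. Their library SEs ran from 0.09 (PRKD1_4) to 0.34 (PRKD1_2), and most were larger than this SD. The closeness is therefore not read as agreement beyond measurement error. The highest ratio was that of PRKD1_3, at 74.4 CPM in PRMT5hi and 83.2 CPM in PRMT5lo (0.16, library SE 0.15), and the lowest that of PRKD1_7, at 81.3 CPM and 76.4 CPM (-0.09, library SE 0.25). *PRKD2*, the main PKD of lymphocytes, lies on chromosome 19 from 46674316 to 46717114 and had a mean of -0.05 (SD 0.23, library SE 0.10). Its range ran from PRKD2_4 at 69.5 CPM and 55.4 CPM (-0.32, library SE 0.40) to PRKD2_5 at 90.7 CPM and 107 CPM (0.24, library SE 0.18).

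*PRKD3* lies on chromosome 2 from 37250502 to 37324833 and had the second highest mean of the 12 genes, 0.14 (SD 0.15, library SE 0.07), with 5 of 7 sgRNAs above 0. PRKD3_1 stood at 58.5 CPM in PRMT5hi and 73.0 CPM in PRMT5lo (0.32, library SE 0.25), and PRKD3_2 at 110 CPM and 101 CPM (-0.12, library SE 0.21). The one-sided p toward PRMT5lo was 0.173 (adjusted p = 0.798). The mean was below the threshold of 0.25, and leaving out each sgRNA in turn kept it between 0.11 and 0.18.

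Compared as classes, nPKC, atypical PKC and PKD lay close together. The mean over genes was 0.05 (SD 0.17 over 4 genes, library SE 0.06) for nPKC, -0.0071 (SD 0.03 over 2 genes, library SE 0.08) for atypical PKC and 0.05 (SD 0.09 over 3 genes, library SE 0.05) for PKD. The medians over genes were 0.03, -0.0071 and 0.06 in the same order. In each of the 3 pairs of these classes the difference between the means was smaller than its library SE. The widest was that of atypical PKC below PKD by -0.06 (library SE 0.09), and the next was that of nPKC above atypical PKC by 0.06 (library SE 0.09). No test was made over so few genes, and these errors do not show that the classes act alike. The nPKC class depended on *PRKCE*: without it, a choice made after its value was seen, the mean of the other 3 genes was -0.03 (SD 0.10).

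Taken over all 12 genes, the mean was 0.03 (SD 0.11 over genes) and the median 0.03, beside a mean of -0.0048 (SD 0.12) and a median of -0.0033 over the 1420 genes. Of the 12, 8 had a mean above 0 and 4 below, while 48.5% of all genes were above 0. Of the 84 sgRNAs 42 were above 0 and 42 below, beside 49.8% of targeting sgRNAs. Only 4 of the 84 (4.76%) were under a two-sided p of 0.05, beside 6.63% of all sgRNAs and 43 of the 500 control sgRNAs (8.60%). None passed an adjusted p of 0.05, as 0.0479% of all sgRNAs did. With variances taken from the abundance trend instead, 5 of the 84 were under 0.05, beside 5.67% of all sgRNAs. No difference from the whole library is read from these small counts.

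The precision of single sgRNAs was judged by their library SE. The median library SE of a log2 ratio was 0.23 for the 84 sgRNAs, 0.24 for targeting sgRNAs and 0.20 for control sgRNAs, and 55 of the 84 ratios (65.5%) were smaller than their own library SE, beside 61.5% of targeting sgRNAs. The log2 ratios of the 84 sgRNAs had an SD of 0.25, which was also that of the 500 control sgRNAs and less than the 0.29 of all targeting sgRNAs. The control sgRNAs had a mean ratio of 0.02. Ratios beyond 0.5 in either direction were found for 3 PKC and PKD sgRNAs (3.57%), PRKCE_5, PRKCE_1 and PRKCZ_3, beside 8.46% of targeting sgRNAs and 20 of the 500 control sgRNAs.

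The PKC and PKD sgRNAs were represented at similar levels in both populations. The 84 sgRNAs averaged 88.1 CPM in PRMT5hi and 89.3 CPM in PRMT5lo, beside 94.1 and 94.0 CPM for targeting and 130 and 133 CPM for control sgRNAs. On the scale of log2(CPM + 1) averaged over both populations, the means were 6.33 for nPKC and 6.34 for atypical PKC and 6.37 for PKD, beside 6.31 for targeting sgRNAs. The read totals recovered from the smallest variances were 16166859 for PRMT5hi and 19117396 for PRMT5lo, and the 84 sgRNAs held between 285 and 4124 estimated reads in a population. In PRMT5lo, 24 of the 84 (28.6%) were at the counting limit of the variance, beside 17.6% of all sgRNAs, and in PRMT5hi 6 (7.14%), beside 12.1%. As amplified reads are not separate molecules, these totals bear on counting error alone.

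Upstream of PKC, 37 receptors that couple to Gq, the G protein that drives phospholipase C, had a median of the gene means of -0.02. Of these, 15 (40.5%) were above 0, beside 48.5% of all genes. None was past the thresholds in either direction, beside 0.704% of all genes toward PRMT5lo and 0.845% toward PRMT5hi. At such shares, no call among 37 genes is not read as a result about the receptors. The means farthest from 0 were -0.22 (SD 0.19, 0 of 7 sgRNAs above 0) for *HTR2C*, a serotonin receptor, and -0.20 (SD 0.27) for *AVPR1B*, a vasopressin receptor. Some receptors missed only the limit of 0.25 on the mean. *TRHR* had a mean of 0.17 and a one-sided p toward PRMT5lo of 0.000313 by Fisher's method (adjusted p = 0.0888). *NTSR1* had a mean of -0.13 and a one-sided p toward PRMT5hi of 0.00143 (adjusted p = 0.145). At an unadjusted p under 0.05, 4 of the 37 passed toward PRMT5lo and 5 toward PRMT5hi, beside 8.59% and 9.3% of all genes. Among the kinases that prime PKC by phosphorylation, *PDPK1* had a mean of -0.0081 (SD 0.29) and *MTOR* of 0.18 (SD 0.29), the latter at only 27.6 CPM in PRMT5hi and 29.9 CPM in PRMT5lo. Enzymes of diacylglycerol and phospholipase D stayed near 0, with -0.04 for *DAGLA*, a diacylglycerol lipase, and 0.03 for *PLD1*, a phospholipase D.

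The PKC-related kinase *PKN2* had a mean of 0.32 (SD 0.24, library SE 0.18), and 7 of 7 of its sgRNAs were more abundant in PRMT5lo. *PKN2* did not pass (one-sided p = 0.0455 by Fisher's method, adjusted p = 0.562), and its sgRNAs were scarce, at 40.4 CPM in PRMT5hi and 48.8 CPM in PRMT5lo. Of 9 kinases and class IIa deacetylases that act after PKC or PKD, 5 (55.6%) had a mean above 0, beside 48.5% of all genes. None of the 9 passed, beside 0.704% of all genes toward PRMT5lo and 0.845% toward PRMT5hi, and nothing is read from so few genes. *GSK3A*, a kinase that PKC can phosphorylate, had a mean of 0.26 (SD 0.39) and a one-sided p of 0.0128 (adjusted p = 0.339). The median over these 9 genes was 0.06, beside -0.0033 over all genes.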

How the data were processed

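Genomic DNA of 4 PRMT5hi and 4 PRMT5lo libraries was amplified and sequenced. Counting of reads per sgRNA and the CB2 analysis (version not given in the sources used here) were done by the authors. FastQC and the build hg38 appear in the submitters' processing notes. The deposited table gives per sgRNA the CPM averaged over the 4 libraries, an estimated fraction of the reads and its variance. Columns of the authors' own fold changes and p-values, and the deposited gene table, were not used.

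The CB2 sgRNA test (difference of fractions over its standard error, Welch degrees of freedom), Fisher's combination per gene and Benjamini-Hochberg adjustment over 10429 sgRNAs or 1420 genes were recomputed with Python 3.11.15 and scipy 1.17.1, and tested on simulated data. Alternatives used limma 3.58.1. The library SE of a log2 ratio was propagated from the deposited variances, and that of a mean treats sgRNAs as independent. An SD given for a gene is over sgRNAs, which share a target and are not replicates. The libraries were split after transduction, so the p-values cover no more than variation among cultures of the same transduced cells. Gene coordinates come from RefSeq (GRCh38.p14), in which all 12 symbols were matched.

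The 12 genes and the lists were chosen with earlier results of these data known. The rule named all 12 genes, with all sgRNAs of a called gene and otherwise those with the highest and lowest ratio or a p under 0.05. Of each other list the called genes are named, or up to 2 with the largest absolute mean; further names were chosen after their values were seen. Some genes that this rule names are not reported here.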

Additional observations from a re-analysis of the deposited data

How the results depend on the processing

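No paired analysis was possible because the deposited columns pool the 4 libraries of a population, and no library could be left out for the same reason. Toward PRMT5lo, *PRKCE* was the gene called with CPM + 5 (mean 0.25), with sgRNAs of at least 20 CPM, after centring on the control median (0.26), with the median over sgRNAs (0.36) and with variances from the abundance trend (Fisher's p = 0.00371). In place of Fisher's method, Stouffer's gave 0 called PKC and PKD genes (*PRKCE* p = 0.0130). The count was also 0 with CPM + 10 (*PRKCE* mean 0.24) and at an adjusted p under 0.05. It was 0 at a one-sided p under 0.001 (the methods text's limit toward PRMT5lo) and with limma, which treats sgRNA ratios as replicates. The limma calls used a two-sided p under 0.01, a stricter limit than the one-sided p of the main calls. With each sgRNA left out in turn, the count called every time was 0. It was also 0 without sgRNAs at the smallest variance, an alternative chosen after seeing the data, which left *PRKCE* 4 sgRNAs, a mean of 0.04 and a p of 0.519. Even in a sound test, dropping small variances drops small p-values. Toward PRMT5hi 0 were called under each of these alternatives. No PKC or PKD sgRNA passed an adjusted p of 0.05 with variances from the trend or with adjustment over targeting sgRNAs. With variances from the trend 5 of them were under 0.05 unadjusted, beside 5.67% of all sgRNAs. Over all 1420 genes, the calls toward PRMT5lo fell from 10 to 4 with CPM + 10, 2 at a p under 0.001, 2 at an adjusted p under 0.05 and 6 without sgRNAs at the smallest variance, and those toward PRMT5hi went from 12 to 5 at a p under 0.001, 3 at an adjusted p under 0.05, 7 with the median and 8 without sgRNAs at the smallest variance. The counts toward PRMT5lo and PRMT5hi were 13 and 17 with Stouffer's method, 11 and 14 with sgRNAs of at least 20 CPM and 10 and 16 with variances from the trend, and 13 were called toward PRMT5lo with the median. In the same order they were 7 and 9 with CPM + 5, 8 and 14 after centring on the control median and 7 and 14 with limma at its two-sided p. With CPM + 10, 9 were called toward PRMT5hi. None of 96 gene and 32 class means moved by more than 2 library SEs (the run without sgRNAs at the smallest variance left out). In the main analysis all but *PRKCE* lay within this limit of 0, so it cannot show stability. In 5 genes (*PRKCH*, *PRKCI*, *PRKCQ*, *PRKCZ* and *PRKD2*) 10 gene means changed sign. So did the atypical class mean (0.03 at its highest, without an sgRNA). The library SE of a gene's mean was 0.07 to 0.13, and the size of shift that could be detected was not measured.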

Other observations

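Among 25 other kinases of the AGC family, to which PKC belongs, 12 (48%) had a mean log2 ratio above 0, beside 48.5% of all genes. None passed the thresholds in either direction, beside 0.704% of all genes toward PRMT5lo and 0.845% toward PRMT5hi. No result about the family is read from these counts. Their median was -0.0044, beside -0.0033 over all genes. The means farthest from 0 were -0.36 (SD 0.46) for *ROCK2*, a kinase of the actomyosin cytoskeleton, and 0.29 (SD 0.19) for *RPS6KB1*, the S6 kinase downstream of mTOR. Of the *RPS6KB1* sgRNAs 7 of 7 were more abundant in PRMT5lo, at means of 66.8 CPM in PRMT5hi and 79.2 CPM in PRMT5lo (one-sided p = 0.0167 by Fisher's method, adjusted p = 0.378). For *ROCK2* 5 of 7 were more abundant in PRMT5hi (one-sided p = 0.0149 by Fisher's method, adjusted p = 0.401).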
